A study of Arabidopsis thaliana with 8 samples.

Results

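The 10 genes described here encode the core machinery of plant RNA polymerases IV and V, which feed RNA-directed DNA methylation (RdDM). They are NRPD1, NRPE1, RDR2, DCL3, CLSY1, CLSY2, CLSY3, CLSY4, SHH1 and DRD1, chosen by gene identifier. All 10 were found among 27213 protein-coding genes. Chromatin of Arabidopsis thaliana Col-0 was immunoprecipitated from a suspension cell culture and from leaves with antibodies against histone H3, H3K4me3, H3K27me3 and H3K9me2, and sequenced (ChIP-seq). The culture was a Col-0 cell line kept in liquid Gamborg medium with 1.1 mg/l of the synthetic auxin 2,4-D, subcultured every 7 d under constant light, and fixed with 1% paraformaldehyde for 15 min. Leaves came from wild-type Col-0 plants on MS agar, and their fixation is not given in the labels. The culture thus stands for 1 cell line, and leaf tissue holds many cell types, so a mark lost from some cells and one lowered in all of them cannot be told apart. The 8 libraries cover 4 antibodies in 2 sample types, with 1 library for each combination and no replicate.

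In RdDM, Pol IV transcribes silent transposable elements and RDR2 copies its transcripts into double-stranded RNA, which DCL3 cuts into small interfering RNAs. The SNF2-like CLSY proteins and SHH1, a reader of H3K9 methylation, bring Pol IV to chromatin. These small RNAs guide Argonaute proteins to the scaffold transcripts of Pol V, whose access to chromatin needs DRD1, and DNA methyltransferase DRM2 is recruited there. H3K4me3 lies over active genes, H3K27me3 is laid down by Polycomb complexes over silent genes, and H3K9me2 covers silent transposable elements.

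Nuclear reads per library ranged between 3116646 and 5649143 in the culture and between 1449274 and 2160614 in leaf. Counts are given as reads, or as scaled reads per kb, which are reads per kb of gene after each library was scaled to 1000000 nuclear reads. The level of a mark is a log2 ratio of its scaled reads to those of H3 from the same sample type, and its change is the culture value minus the leaf value. Brackets after these hold 95% intervals, which cover counting error only and not the spread between plants, cultures or immunoprecipitations. A gene is said to have risen or fallen if it changed by 2-fold or more with an interval clear of 0, and no test between sample types was run. As a check of the sample types by H3K4me3, 4 of 7 tested photosynthesis genes (8 listed) fell and none rose, and 3 of 8 cell cycle and replication genes rose and none fell, where 8.55% of all tested genes fell and 12.7% rose. Measured from the median gene, 5 of the photosynthesis genes fell and 2 of the cell cycle genes rose. Among all tested genes 10.4% then fell and 10.3% rose.

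The members did not change as a block, and in H3K27me3 and H3K9me2 the share called lay near that of all genes. In H3, 2 of the 10 rose and none fell, where 4.04% of 21146 tested genes rose and 10.5% fell (14.6% either way). In H3K4me3, 1 rose and 2 fell, where 12.7% of 20473 genes rose and 8.55% fell (21.3% either way). In H3K27me3, 3 fell, none rose and 7 did neither, where 26.7% of 19845 genes fell and 2.76% rose (29.5% either way). In H3K9me2, 3 of 8 tested members rose and none fell, where 21.6% of 6147 genes rose and 10.7% fell (32.2% either way). The members' median change was -0.12 in H3K4me3, -0.71 in H3K27me3 and 0.31 in H3K9me2, beside 0.11, -0.57 and 0.34 over all tested genes.

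Measured from that median gene, fewer calls were left in H3K27me3 and H3K9me2, and as many in H3K4me3 and H3. H3K27me3 then fell at DRD1 alone of the members, where 11.8% of genes fell and 8.61% rose (20.4% either way). H3K9me2 rose at NRPD1 alone, where 14.4% rose and 16.8% fell (31.2% either way). H3K4me3 fell at NRPD1, CLSY1 and CLSY2 and rose at no member, where 10.4% fell and 10.3% rose (20.6% either way). H3 rose at NRPD1 and CLSY1 as before, where 7.16% rose and 4.08% fell (11.2% either way).

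**Figure D1:**
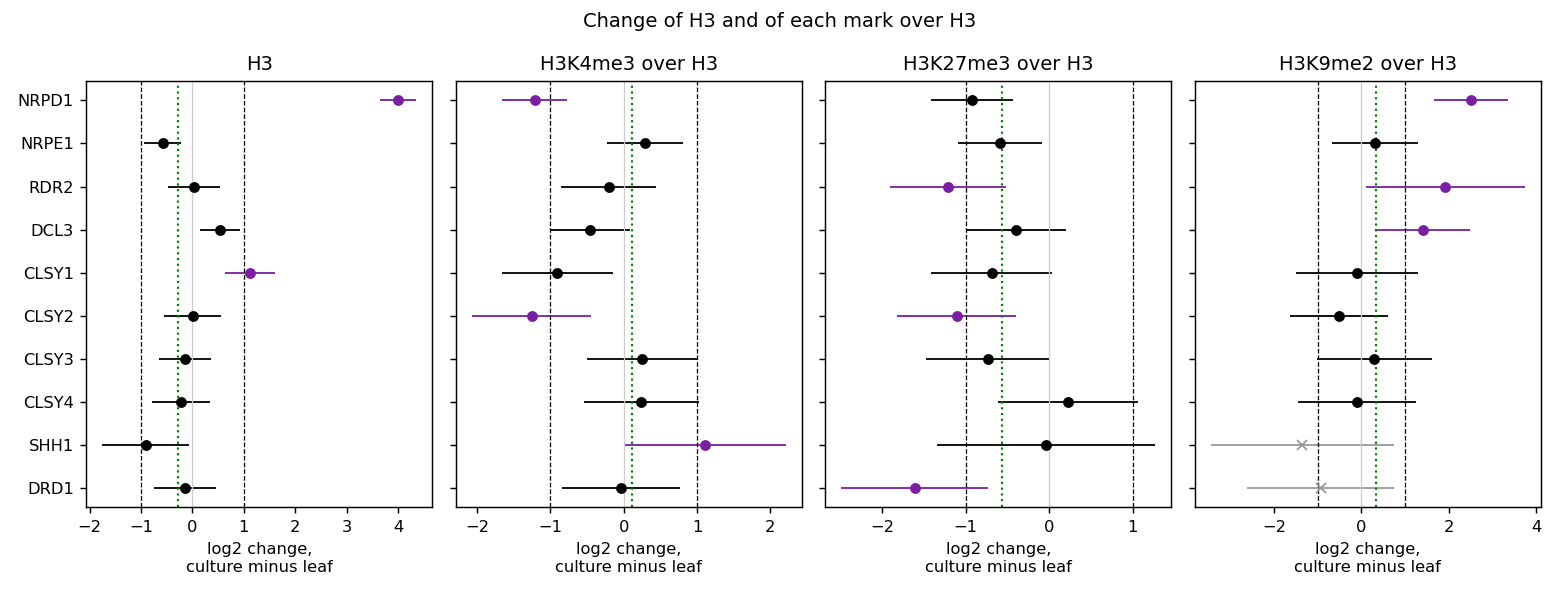
Log2 change, culture minus leaf, of H3 and of each mark over H3 for the 10 genes, with 95% counting intervals. Purple points were called, black points were not, and grey crosses had too few H3K9me2 reads. Dashed lines mark 2-fold and the green dotted line the median gene, which lies at -0.57 for H3K27me3. NRPD1 stands at 4.00 for H3 and 2.51 for H3K9me2.

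No member reached a 2-fold excess of mark over H3 in either sample type. Among tested genes 29.2% did so for H3K4me3 in the culture and 22.8% in leaf. For H3K27me3 the shares were 11.9% in the culture and 19.4% in leaf, and for H3K9me2 4.57% and 3.63%. The counts cover whole gene bodies, and 9 of the members are longer than 3500 bp. The 3982 tested genes of over 3500 bp had a median H3K4me3 over H3 of -0.03 in the culture and -0.04 in leaf, beside 0.35 and 0.20 over all tested genes. The highest H3K4me3 levels were at SHH1 in the culture (0.78) and NRPD1 in leaf (0.46), followed by RDR2 with 0.14 in the culture and 0.35 in leaf. The lowest were at CLSY1 in the culture (-1.53), in the lowest 2.97% of tested genes, and at CLSY3 in leaf (-0.82).

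**Figure D2:**
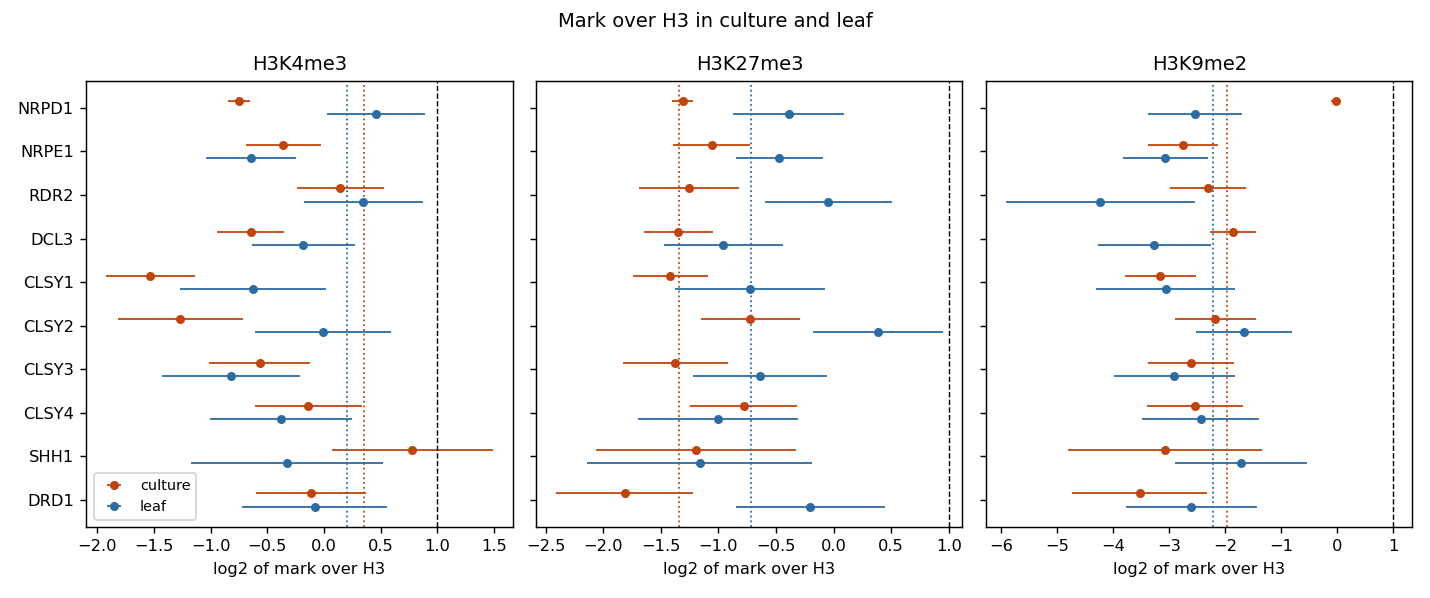
Log2 of mark over H3 for the 10 genes, with culture in orange above leaf in blue, 95% counting intervals, dotted lines at the median tested gene and a dashed line at 2-fold. All points lie left of the dashed line. CLSY1 in the culture has the lowest H3K4me3 at -1.53, and NRPD1 in the culture the highest H3K9me2 at -0.03.

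NRPD1 (AT1G63020, TAIR10 chromosome 1, 23354686 to 23362564) stood apart from the other members in the culture. It encodes the largest subunit of Pol IV. The gene held 2236 H3, 1480 H3K4me3, 1633 H3K27me3 and 2299 H3K9me2 reads in the culture, against 64, 127, 73 and 13 reads in leaf for the same antibodies. Reads were thus high in all 4 culture libraries, while per length each leaf library lay in the range of the other members. Its H3 was 91.1 scaled reads per kb in the culture and 5.60 in leaf, beside a median gene of 5.75 in the culture and 6.84 in leaf.

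H3 over NRPD1 rose by 4.00 on the log2 scale (3.64 to 4.36), 16-fold, the 21st highest change among 21146 tested genes. CLSY1 was the other member that rose, with a change of 1.12 (0.63 to 1.61). Its rise was not called when the adjoining intervals were added (0.94) or under a 3-fold rule. The other members had H3 changes between -0.91 at SHH1 and 0.54 at DCL3.

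**Figure D3:**
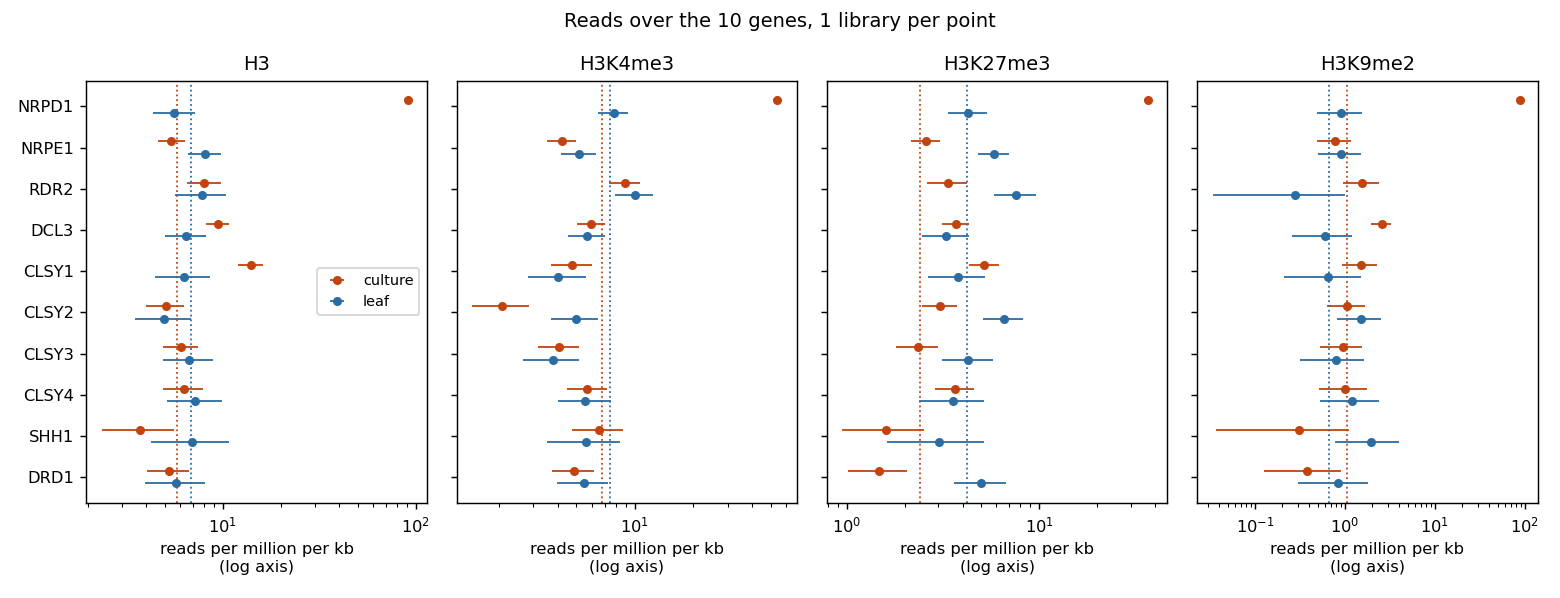
Reads per kb of gene after scaling to 1000000 nuclear reads (log axis) over each of the 10 genes for 4 antibodies, with culture in orange above leaf in blue, bars for 95% counting intervals and dotted lines for the median gene. NRPD1 in the culture lies at 91.1 for H3 and 89.5 for H3K9me2, to the right of every other point in its panel.

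The high read level was shared with the genes around NRPD1. It lay in an unbroken run of 20 genes, chromosome 1 from 23323318 to 23408052 (84.7 kb), in which H3 was at least 4-fold higher in the culture at each gene (log2 of 2). This run and its threshold were chosen after the values were seen. It was taken without the minimums of reads, which 12 of the 19 other genes passed for each mark. The lowest H3 change, 2.48 at AT1G62978, rests on 11 H3 reads in the culture and 0 in leaf. Over the 19 other genes of the run the median log2 of culture over leaf was 3.41 in H3 reads, 2.65 in H3K4me3 reads, 2.54 in H3K27me3 reads and 3.58 in H3K9me2 reads. NRPD1 itself had 4.00, 2.79, 3.08 and 6.51 in the same order.

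Its neighbour AT1G63010 held 1137 H3 reads in the culture and 55 in leaf. NRS/ER (AT1G63000) held 400 H3 reads in the culture and 8 in leaf, below the minimum of 10 for tested genes. It was the 1 gene of the run with a larger H3 change than NRPD1. Beyond the run the H3 change dropped to 1.92 at AT1G62960 on the low-coordinate side and 0.53 at AT1G63120 on the other. At AT1G63130, the next gene after AT1G63120, it was 1.86, with 155 H3 reads in the culture and 19 in leaf. Across the genome 3 runs of at least 10 genes passed this threshold, with 54 genes in all, and none of the other members lay in one. No input DNA library was used here, so more copies of this stretch and more H3 recovered from it cannot be told apart.

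**Figure D4:**
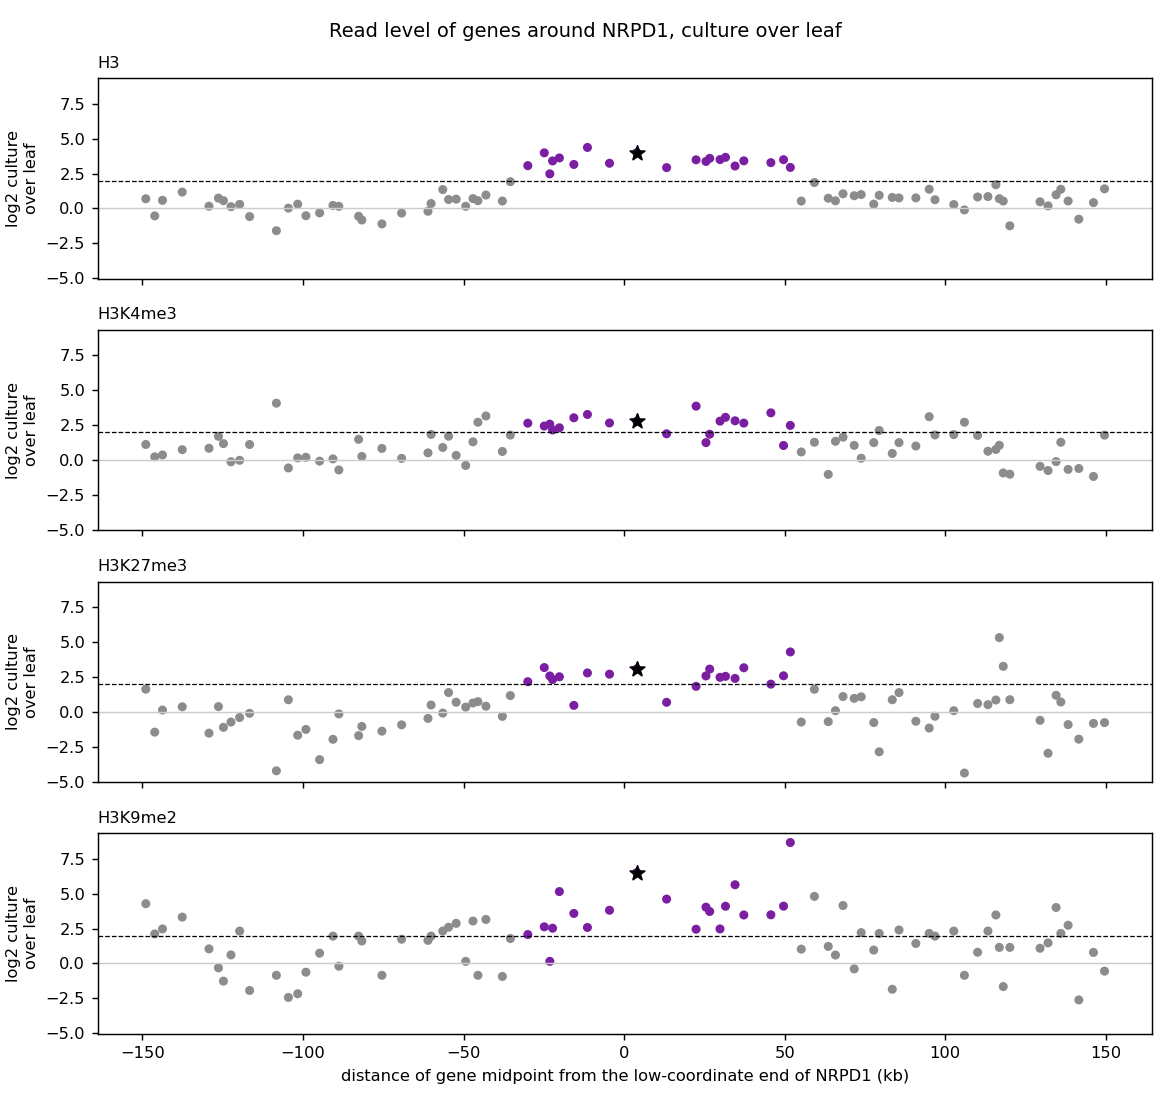
Log2 of culture over leaf read level (each scaled to nuclear reads) for genes within 150 kb of NRPD1, in 4 panels by antibody, against distance in kb. Purple points are the 20 genes of the run and the black star is NRPD1. The dashed line marks a log2 of 2. H3 over the 19 other genes of the run spans 2.48 to 4.37, and both ends are genes with fewer than 10 leaf H3 reads.

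The run was selected for high H3, so its median cannot be set against windows that were not selected. Within 100 kb of NRPD1, a window that includes the run, the median H3 change of 54 genes was 0.93, beside its own 4.00. The median H3 change of the 11 genes within 100 kb of CLSY1 was 0.83, beside its own 1.12, and that of 29 genes around DCL3 was 0.57, beside its own 0.54. Both lie on chromosome 3, as does CLSY4, where the median was -0.16. Around NRPE1 the median was -0.58 over 56 genes, and its own change was also -0.58. For the remaining members the median lay between -0.63 around SHH1 and -0.16 around CLSY4.

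Within NRPD1 the marks did not change in step. H3K9me2 over H3 was -0.03 (-0.11 to 0.06) in the culture and -2.54 (-3.37 to -1.70) in leaf, a rise of 2.51 (1.67 to 3.35). Of 12 other genes of the run tested for H3K9me2, 2 rose and none fell, with a median change of 0.43. Among all tested genes 21.6% rose and 10.7% fell, and the median gene stood at 0.34. The run was selected for high H3, the divisor, which favours falls at its genes, so this is no like comparison. The largest change in the run was that of AT1G63110, at 5.72, which held 3653 H3K9me2 reads in the culture and 4 in leaf. H3K9me2 over NRPD1 was 89.5 scaled reads per kb in the culture and 0.911 in leaf. No other member exceeded 2.56 in the culture, the value of DCL3.

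H3K4me3 over NRPD1 was -0.75 (-0.85 to -0.66) in the culture and 0.46 (0.03 to 0.89) in leaf, so it fell, with a change of -1.21 (-1.65 to -0.77). Of the 12 other tested genes in the run 3 fell and none rose, with a median of -0.52. Among all tested genes 8.55% fell and 12.7% rose in H3K4me3, and the median gene stood at 0.11. H3K27me3 over NRPD1 was -1.31 (-1.40 to -1.22) in the culture and -0.39 (-0.87 to 0.09) in leaf, a change of -0.92 (-1.41 to -0.43) that was not called, and of the 12 other genes 7 fell and 1 rose, where 26.7% of all tested genes fell and 2.76% rose and the median gene stood at -0.57. The run was selected for high H3 in the culture, and each mark is divided by H3, so the selection favours falls at its genes. Their falls and medians thus cannot be set against the values of all tested genes. Without H3, the lowest change among the 19 other genes of the run was 1.05 for H3K4me3 and 0.46 for H3K27me3. Both directions at NRPD1 rest on the division by H3. Without it, H3K4me3 over NRPD1 was higher in the culture by 2.79 and H3K27me3 by 3.08.

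NRPE1 (AT2G40030, chromosome 2, 16714495 to 16723583), the largest subunit of Pol V, did not share the pattern of its Pol IV counterpart. It held 153 H3, 133 H3K4me3, 133 H3K27me3 and 23 H3K9me2 reads in the culture, against 106, 97, 114 and 15 in leaf. Counts were higher in each culture library, and these were also the deeper ones, and no mark was called. Its changes were 0.29 (-0.23 to 0.80) for H3K4me3, -0.59 (-1.09 to -0.08) for H3K27me3 and 0.32 (-0.664 to 1.295) for H3K9me2.

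The change at NRPD1 minus that at NRPE1 was -1.499 (-2.18 to -0.82) for H3K4me3 and 2.20 (0.91 to 3.48) for H3K9me2. For H3K27me3 it was -0.34 (-1.04 to 0.37), an interval that holds 0. Such differences between genes do not depend on library totals, but that in H3K4me3 rests on the division by H3. Without H3 the order was reversed, with H3K4me3 changes of 2.79 at NRPD1 and -0.29 at NRPE1. The H3K9me2 changes without H3 were 6.51 at NRPD1 and -0.26 at NRPE1, in the same order as before. In all 7 pairs of related members were compared for 3 marks, and 7 of the 21 intervals excluded 0, with no adjustment for their number.

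RDR2 and DCL3, the enzymes that turn Pol IV transcripts into small RNAs, both rose in H3K9me2, with very low counts in leaf. RDR2 (AT4G11130, chromosome 4, 6780523 to 6784440) held 20 H3K9me2 reads in the culture and 2 in leaf, with 98 and 44 H3 reads. Its change was 1.93 (0.11 to 3.74). RDR2 passed the minimum of 20 mark reads over both libraries only through its culture reads, as did DCL3 and NRPD1, so the minimum favours a rise at these genes. The call at RDR2 was lost with a pseudocount of 5 (1.02), with the adjoining intervals (0.87), with totals over genes and when measured from the median gene. DCL3 (AT3G43920, chromosome 3, 15753549 to 15760859) held 61 H3K9me2 reads in the culture and 8 in leaf, with 214 and 68 H3 reads. Its change was 1.40 (0.32 to 2.48), and measured from the median gene 1.06 (-0.02 to 2.15), which was not called.

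H3K27me3 fell over RDR2, which held 74 reads in the culture and 64 in leaf. The level was -1.26 (-1.69 to -0.83) in the culture and -0.05 (-0.59 to 0.50) in leaf, a change of -1.21 (-1.91 to -0.51). Measured from the median gene the change was -0.64 (-1.34 to 0.05), which was not called. The call was also lost with a 3-fold rule, with totals over genes and with the adjoining intervals. Over DCL3, with 152 reads in the culture and 52 in leaf, the H3K27me3 change was -0.39 (-0.99 to 0.20). H3K4me3 was not called at either gene. RDR2 had 121 H3K4me3 reads in the culture and 81 in leaf and a change of -0.20 (-0.85 to 0.45), and DCL3 had 152 and 86 reads and a change of -0.46 (-1.01 to 0.08). DCL3 overlaps its neighbour AT3G43930 by 42 bp, so reads there can count for both.

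The CLSY genes encode related chromatin remodelling factors that direct Pol IV to different sets of loci, and H3K4me3 was called at CLSY2 alone among them. CLSY2 (AT5G20420, chromosome 5, 6899016 to 6904167) held 37 H3K4me3 reads in the culture and 53 in leaf, although the culture library was deeper, with 81 and 37 H3 reads. It fell by 1.26 on the log2 scale, with a change of -1.26 (-2.07 to -0.44). CLSY1 (AT3G42670, chromosome 3, 14755799 to 14760085) held 71 H3K4me3 reads in the culture and 36 in leaf, with 186 and 39 H3 reads. Its change of -0.90 (-1.66 to -0.15) was not called, and was called when measured from the median gene (-1.01).

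CLSY3 (AT1G05490, chromosome 1, 1618603 to 1623452) held 69 H3K4me3 reads in the culture and 38 in leaf, with 92 and 47 H3 reads, a change of 0.25 (-0.51 to 1.01). CLSY4 (AT3G24340, chromosome 3, 8832086 to 8835722) held 72 H3K4me3 reads in the culture and 42 in leaf, with 71 and 38 H3 reads, a change of 0.24 (-0.54 to 1.02). The H3K4me3 change at CLSY2 was lower than that at CLSY3 (difference -1.51, -2.62 to -0.39) and CLSY4 (difference -1.496, -2.63 to -0.37). CLSY1 minus CLSY3 was -1.15 (-2.22 to -0.09) and CLSY1 minus CLSY4 was -1.14 (-2.23 to -0.06). CLSY1 and CLSY2 differed by 0.35 (-0.76 to 1.46), and CLSY3 and CLSY4 by 0.01 (-1.08 to 1.10). These intervals are too wide to show that the members of either pair changed alike. The value of CLSY1 rests on its higher H3: without H3 its H3K4me3 was 0.22 higher in the culture, while CLSY2 still had -1.25.

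CLSY2 also fell in H3K27me3. It held 89 reads in the culture and 73 in leaf, a level of -0.72 (-1.16 to -0.29) in the culture and 0.39 (-0.18 to 0.95) in leaf, the highest leaf level among the members. Its change was -1.11 (-1.82 to -0.40), and -0.54 measured from the median gene, which was not called. In leaf CLSY2 exceeded CLSY1 in H3K27me3 over H3 by 1.11 and its difference from CLSY4 was 1.39 (0.50 to 2.28). CLSY4 had 75 H3K27me3 reads in the culture and 28 in leaf and a change of 0.22 (-0.61 to 1.06), so CLSY2 minus CLSY4 was -1.33 (-2.43 to -0.24). CLSY1 with 126 culture and 35 leaf reads (-0.69) and CLSY3 with 64 and 45 (-0.74) were not called.

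H3K9me2 over the CLSY genes was low in both sample types, from 12 to 21 reads in the culture and from 5 to 14 in leaf. None of the 4 was called, with changes from -0.51 at CLSY2 to 0.30 at CLSY3. The levels over H3 were between -3.15 and -2.18 in the culture and between -3.06 and -1.66 in leaf.

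SHH1 (AT1G15215, chromosome 1, 5238066 to 5240051), the shortest member at 1986 bp, had the 1 rise in H3K4me3. It held 45 H3K4me3 reads in the culture and 23 in leaf, with 23 and 20 H3 reads. The level was 0.78 (0.07 to 1.49) in the culture and -0.33 (-1.17 to 0.52) in leaf, a rise of 1.11 (0.0015 to 2.21), and the lower end of that interval nearly touches 0. The call was lost under 6 of 8 alternatives, of which 1, no minimum of reads, could not remove it. With the adjoining intervals the change was -0.056. SHH1 overlaps AT1G15220 by 22 bp, which held 67 H3K4me3 reads in the culture and 83 in leaf. The whole of AT1G15220 is 1 of the adjoining intervals, so its reads enter the value of -0.056. SHH1 held 18 H3K27me3 reads in the culture and 13 in leaf, a change of -0.03 (-1.34 to 1.27).

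DRD1 (AT2G16390, chromosome 2, 7097281 to 7101261), the remodelling factor that acts with Pol V, had the largest fall in H3K27me3 among the members. It held 33 H3K27me3 reads in the culture and 43 in leaf, with 65 and 33 H3 reads. The level was -1.81 (-2.41 to -1.22) in the culture and -0.20 (-0.85 to 0.44) in leaf, a change of -1.61 (-2.49 to -0.73), or -1.04 from the median gene. This fall was called under all 8 alternatives, of which 1, no minimum of reads, could not remove it. H3K4me3 over DRD1 was 67 reads in the culture and 45 in leaf, a change of -0.03 (-0.84 to 0.77). SHH1 and DRD1 had too few H3K9me2 reads for a call, with 2 in the culture and 7 in leaf at SHH1 and 5 and 6 at DRD1.

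Intergenic intervals beside the members held at most 46 reads in any library, other than those of NRPD1 and CLSY3. Beside NRPD1, the 1988 bp on the low-coordinate side held 156 H3, 105 H3K4me3, 138 H3K27me3 and 68 H3K9me2 reads in the culture, against 7, 16, 2 and 13 in leaf. The 159 bp on its other side held 2 H3 and 3 H3K4me3 reads in the culture and none in leaf. Beside CLSY3, the 3940 bp on the low-coordinate side held 87 H3K27me3 reads in the culture and 39 in leaf, and 14 and 20 H3K9me2 reads. The strand of the genes is not in the files, so the side of the start site is not given.

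Of genes with the most similar levels over the 6 ratios of mark over H3, among 6046 tested for all marks, NRPE1 had NPH4, CLSY3 and AT3G53680, at distances from 0.48 to 0.51 (log2 units). CLSY3 was the nearest member to NRPE1, at 0.50. NRPD1 had no gene closer than UPL2, at 0.91, and then AT4G10890 and AT2G26190. DCL3 lay at 0.30 from AT2G47410, with AT1G07650 and UPL4 next. CLSY4 had FAS2, AT1G72410 and ESP3 nearest, and CLSY3 had REV1, ACC2 and MYA2. RDR2 had ENDO4, AT3G43610 and LRS1, and CLSY2 had MLS, AT3G24240 and CALS5. CLSY1 had AT5G42140, AT3G20010 and AT2G40770, SHH1 had AT5G18630, ASP5 and CPL3, and DRD1 had RPP1, CYCT1;2 and GI, but for SHH1 and DRD1 the pair of H3K9me2 ratios rests on counts too low for a call.

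The other 21 listed RdDM genes act as shared polymerase subunits, Argonautes, Pol V partners and methyltransferases, and 20 were tested for H3K4me3 and H3K27me3. In H3K4me3 2 rose, 1 fell and 17 did neither, no larger a share than among all tested genes (12.7% rose and 8.55% fell). AGO4, which binds the small RNAs, held 75 H3K4me3 reads in the culture and 19 in leaf and rose by 1.57 (0.72 to 2.43). AGO6, a related Argonaute, held 54 and 16 reads and rose by 1.78 (0.86 to 2.69). Over H3, AGO4 stood at -0.48 in the culture and -2.05 in leaf, and AGO6 at -0.70 in the culture and -2.48 in leaf. DRM1, a DNA methyltransferase related to DRM2, held 34 reads in the culture and 41 in leaf and fell, with a change of -1.39 (-2.26 to -0.52). The next highest and lowest changes were 1.04 at NRPD4 and -0.81 at MORC1, neither of them called.

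H3K27me3 fell at 5 of the 20 genes and rose at none, a share near that of all tested genes (26.7% fell and 2.76% rose). DRM1 held 39 H3K27me3 reads in the culture and 176 in leaf, a change of -3.92 (-4.68 to -3.16). AGO9, the Argonaute known from ovules, held 112 and 213 reads, a change of -2.31 (-2.84 to -1.77). FDM2, a partner of IDN2, held 39 and 105 reads (-1.10), AGO4 39 and 46 (-1.23) and DMS3, a partner of DRD1, 24 and 25 (-1.12). No tested gene of the list exceeded H3 2-fold in the culture, and DRM1, AGO9 and FDM2 did in leaf, at 1.89, 1.12 and 1.11, where 11.9% of all tested genes did in the culture and 19.4% in leaf. Measured from the median gene 2 of the 5 falls were called, those of DRM1 and AGO9, and NRPD4 rose there (1.84 from the median gene, 1.27 before). Among all tested genes 11.8% then fell and 8.61% rose. The highest change after NRPD4 was 0.12 at MORC6 and was not called.

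H3K9me2 was tested at 11 of these genes, of which AGO6 rose and AGO4 fell, where 21.6% of all tested genes rose and 10.7% fell. AGO6 held 28 reads in the culture and 1 in leaf (change 3.84, 1.72 to 5.96), and AGO4 held 8 and 23 (-1.87, -3.07 to -0.67). AGO6 passed the minimum of 20 reads only through its culture reads and AGO4 only through its leaf reads, which favours these directions. The next highest and lowest were SHH2, a paralogue of SHH1, at 1.201 (-0.47 to 2.87) and HEN1, the small RNA methyltransferase, at -0.29 (-1.36 to 0.77). RDM1, a partner of DRD1, had 7 leaf H3 reads and was not tested. It held 342 H3K4me3 reads in the culture and 33 in leaf, with 46 H3 reads in the culture.

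H3 fell at 4 of the 20 tested genes and rose at none, where 10.5% of all tested genes fell and 4.04% rose. They were NRPD4 with 10 H3 reads in the culture and 16 in leaf (-1.73), FDM2 with 21 and 32 (-1.69), SUVH9 with 37 and 46 (-1.41) and SUVH2 with 41 and 40 (-1.07). NRPD4 is a subunit shared by Pol IV and Pol V, and SUVH2 and SUVH9 bring Pol V to methylated DNA. The highest changes were 0.99 at IDN2 and 0.54 at NRPD2, neither of them called. Measured from the median gene 3 fell and 1 rose, with IDN2 (1.27) called and SUVH2 (-0.78) not. Among all tested genes 4.08% then fell and 7.16% rose in H3.

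**Figure D5:**
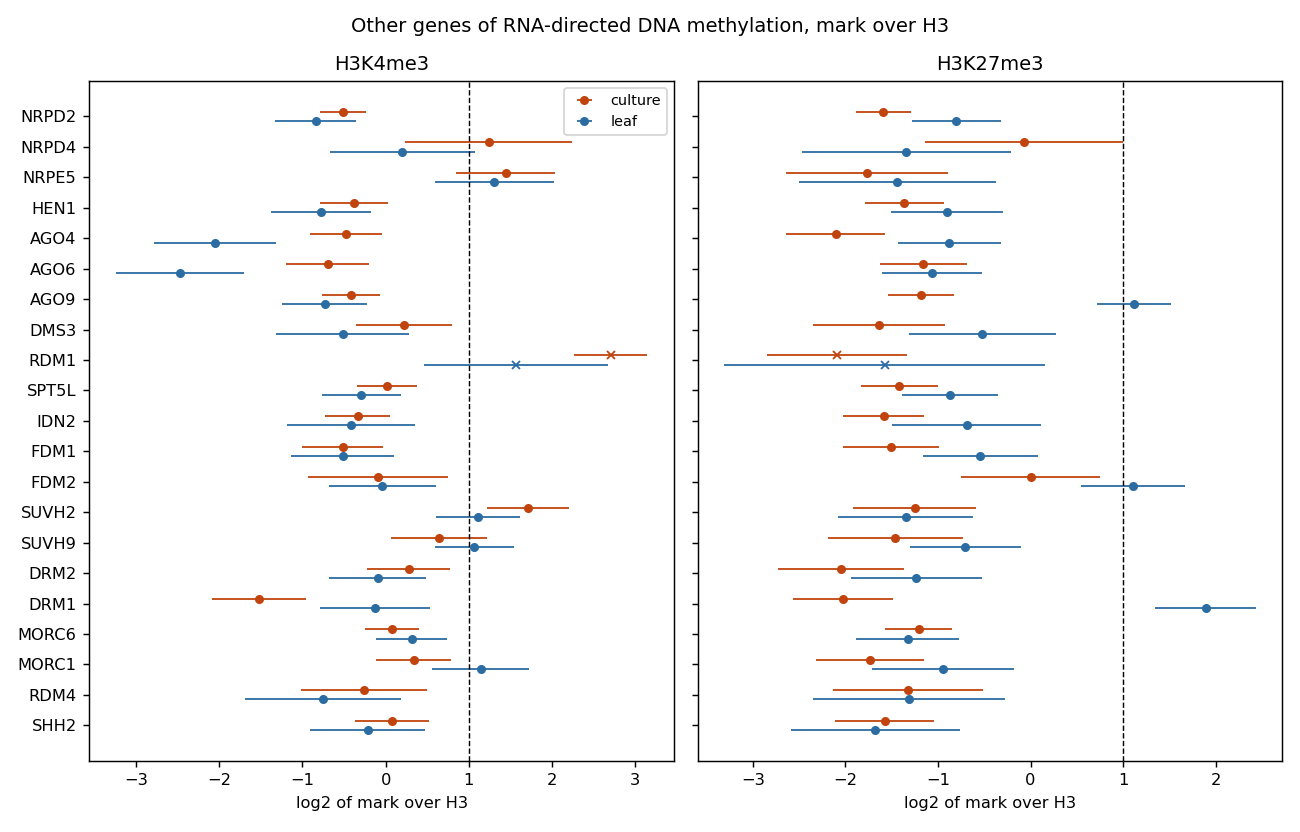
Log2 of H3K4me3 and H3K27me3 over H3 for the 21 other listed RdDM genes, with culture in orange above leaf in blue, 95% counting intervals, a dashed line at 2-fold and crosses for a gene with too few H3 reads. For H3K27me3, DRM1, AGO9 and FDM2 lie at -2.03, -1.19 and 0.004 in the culture, and right of the dashed line in leaf, at 1.89, 1.12 and 1.11.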

How the data were processed

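Each deposited file gives, for 1 library, a raw read count in 109972 intervals (genes, transposable elements and the stretches between), which are the same in all 8 files. Alignment to TAIR10 and the tools Bowtie2 and bedtools are named in the submitters' processing notes, and the sources used here do not give settings, versions or the handling of duplicates and multiply mapped reads. Counts with a pseudocount of 1 were scaled to nuclear totals. Changes and their counting intervals were computed with Python 3.11.15, numpy 2.4.6 and pandas 2.3.3 over all protein-coding genes with at least 20 mark reads over both libraries and 10 H3 reads in each. Runs of genes, and the genes within 100 kb of each member, were taken without these minimums. The computation was first tested on simulated data. Median-centred values subtract the median change of tested genes. Symbols of listed genes are those of the lists, and all 53 identifiers matched RefSeq.

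The members and lists were chosen with earlier results of these data known. Named were the 10 members, the called genes and the 2 highest and 2 lowest changes of the other lists, and the 3 genes nearest each member by Euclidean distance over 6 ratios. Alternatives were marks taken alone, no minimum of reads, a pseudocount of 5, centring on the median gene, a 3-fold rule, totals over genes, genes with their adjoining intervals, and totals that leave out H3-dense intervals (leaf H3 per kb over 20 times that of the median gene). A planned search for promoter motifs was not run, since no promoter sequence was used here.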

Additional observations from a re-analysis of the deposited data

Results flagged for a closer look

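In 4 results among the members, the other RdDM genes and the paralogues, the mark lay on opposite sides of H3 in the culture and in leaf, each with a counting interval that excludes 0. The difference was not tested, since each sample type has 1 library, and the zero of this scale depends on the library totals. H3K4me3 over NRPD1 changed by -1.21, with -0.75 in the culture and 0.46 in leaf. H3K4me3 over NRPB1, the largest subunit of Pol II, changed by -0.73, with -0.30 in the culture and 0.42 in leaf, which did not reach 2-fold. H3K27me3 over AGO9 changed by -2.31, with -1.19 in the culture and 1.12 in leaf. H3K27me3 over DRM1 changed by -3.92, with -2.03 in the culture and 1.89 in leaf.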

How the results depend on the processing

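As reported, 2 members were called in H3 and 3 in each mark. H3K27me3 calls numbered 5 without H3 (1 rose and 4 fell), 1 when centred, 1 with a 3-fold rule and 1 with totals over genes. H3K9me2 calls numbered 1 when centred and 1 with totals over genes. The 3-fold rule left 0 calls for H3K4me3 and 1 for H3, and the adjoining intervals left 1 for H3. Smaller shifts included 2 H3K9me2 calls with a pseudocount of 5 and 2 with a 3-fold rule. H3K4me3 calls numbered 2 without H3 (1 rose and 1 fell) and 2 with totals that leave out H3-dense intervals. Shares of calls over all tested genes were computed only as reported and when centred, so the other counts cannot be set against a share. Members at least 2-fold over H3 numbered 0, but 2 when centred (NRPD1 for H3K9me2 in the culture, CLSY2 for H3K27me3 in leaf). They numbered 1 with totals over genes (NRPD1 for H3K9me2) and 1 with adjoining intervals (SHH1 for H3K4me3 in leaf). For SHH1 the adjoining intervals include the whole gene AT1G15220, with 83 H3K4me3 reads in leaf beside 23 over SHH1 itself. Without H3 the direction changed for NRPD1 (2.79 for H3K4me3, 3.08 for H3K27me3), CLSY1 (0.22 for H3K4me3, 0.43 for H3K27me3) and NRPE1 (-0.29 for H3K4me3), and with adjoining intervals for SHH1 H3K4me3 (-0.056). Other sign changes were of values whose intervals held 0 before and after, as did those of NRPE1 and, for H3K27me3, of CLSY1. The alternatives counted next include no minimum of reads, which could not remove a call. The rise of NRPD1 in H3 kept its call under 7 of 7 alternatives (3.92 to 4.29) and that in H3K9me2 under 8 of 8 (1.65 to 6.51). The fall of DRD1 in H3K27me3 kept its call under 8 of 8 (-1.76 to -1.04). Other causes of these differences were not tested. Leaf H3K9me2 counts, with a median of 3 per gene, limit the precision for that mark. No paired analysis was possible because each antibody and sample type has 1 library, and no library could be left out.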

Other observations

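Paralogues of the members that act with Pol II, in microRNA synthesis or in post-transcriptional silencing showed no called change, other than H3K9me2 at DCL2, which fell when measured from the median gene (-1.22). The 6 genes were NRPB1, RDR1, RDR6, DCL1, DCL2 and DCL4. Without centring none rose or fell in H3, H3K4me3, H3K27me3 or, at the 5 tested, H3K9me2. Among all tested genes 14.6% were called in H3, 21.3% in H3K4me3, 29.5% in H3K27me3 and 32.2% in H3K9me2. Measured from the median gene, 16.8% of all tested genes fell in H3K9me2. With so few paralogues, the lack of calls does not show that they changed less than other genes. RDR6, which makes double-stranded RNA from cleaved transcripts, had the highest H3K4me3 change, 0.65 (0.04 to 1.27), with 156 reads in the culture and 55 in leaf, followed by DCL4 at 0.34. NRPB1 had the lowest, -0.73 (-1.17 to -0.28), with 260 and 164 reads, and then DCL2 at -0.06. H3K27me3 changes ran from -0.81 at RDR1 and -0.77 at DCL2 to -0.31 at RDR6 and -0.18 at DCL4. H3K9me2 changes ran from -0.88 at DCL2 and -0.60 at RDR6 to -0.34 at NRPB1 and 0.63 at DCL4. H3 over NRPB1 was 288 reads in the culture and 85 in leaf, beside 2236 and 64 over NRPD1.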
